A study of Mus musculus with 12 samples.

Results

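Isolated m6A peaks are stretches of methylated mRNA with no other peak in their genomic surroundings. They were taken from a table of 12923 peaks as those wider than 250 and narrower than 1000 bases with no other peak on the same chromosome within 50000 bases of either edge. 1975 peaks, 15.3% of all, met the rule. The rule used position and width alone and no measured ratio. Without the width limits 2540 peaks were isolated, of which 327 were 250 bases or narrower and 238 were 1000 bases or wider. The comparison groups were the 10948 other peaks and, among them, the 7977 peaks within the same width limits that had a neighbour within 50000 bases, called neighboured peaks here.

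The peaks come from MeRIP-seq of polyA RNA from E14TG2a, a mouse embryonic stem cell line grown with LIF and with PD0325901 and CHIR99021, inhibitors of MEK and GSK3. In this assay an antibody against m6A enriches methylated RNA fragments (IP), and a share of the same kind of RNA is sequenced without enrichment (input). The genotypes were wild type (WT), Alkbh5 KO, or Alkbh5 del-cIDR, in which the demethylase lacks its C-terminal intrinsically disordered region, and no group carried a further allele or agent that the labels name. Each genotype had 2 IP and 2 input samples, and thus 2 libraries of IP over input ratios. The labels do not say whether replicates are separate cultures or whether a genotype is 1 clone, so the p-values measure the spread between these samples, which may be technical. The genes of the series are listed without symbols, so marker genes of stem cells, the level of Alkbh5 and the genes under the peaks were not analysed here.

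N6-methyladenosine is placed on nascent RNA polymerase II transcripts by a writer complex built around Mettl3 and Mettl14, mostly within a short consensus motif, and is enriched around stop codons, in 3′ untranslated regions and in long internal exons. Alkbh5 and Fto are the known enzymes that remove it, and Alkbh5 acts mainly in the nucleus. Proteins with a YTH domain read the mark and direct RNA to export, splicing or decay, and in embryonic stem cells the mark is known for limiting the lifetime of mRNAs that maintain pluripotency.

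A ratio here is IP over input reads of a peak, multiplied by 1 constant per library. The constant sets a control RNA named as m6A to 4.10 in every library and takes in any scaling for library depth. A control named as unmodified stood at 0.010 to 0.053, and 1974 of the 1975 isolated peaks lay above it in every library. No isolated peak was at 0 in any library, while 27 of all peaks were. In lowest terms, which give lower bounds, the libraries' medians over isolated peaks were 49.5 to 95 for input reads and 178.5 to 269 for IP reads. For the other peaks these medians were 67 to 126 and 197 to 279. The counting error of a median isolated ratio was at most 12.5% to 16.4%, against 11.3% to 14.6% in the other peaks. Intervals of this kind cover counting error only.

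Isolated peaks carried higher m6A ratios than the other peaks in all 6 libraries, by a small margin. The median ratio over isolated peaks was 1.80 and 1.60 (WT), 1.82 and 2.11 (KO) and 1.66 and 1.67 (del-cIDR). Over the other peaks it was 1.56 and 1.37 (WT), 1.59 and 1.82 (KO) and 1.45 and 1.45 (del-cIDR). The isolated median was thus 1.14 to 1.17 times that of the other peaks within a library. Against the neighboured peaks of the same widths it was 1.08 to 1.11 times as high. These margins repeat across libraries that share the same peaks, so they are given as a description with no test.

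The margin was smaller than the shift between replicate libraries in WT and KO, and larger in del-cIDR. The difference of medians between isolated and neighboured peaks ran from 0.125 to 0.201 over the libraries. The isolated medians of the replicates differed by 0.194 in WT, 0.289 in KO and 0.011 in del-cIDR. The comparison within a library does not contain these shifts.

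Isolated peaks were higher through the middle of the distribution as well as at its ends. Their lower quartile, median and upper quartile of the mean ratio were 1.12, 1.80 and 3.02. In neighboured peaks these were 1.02, 1.65 and 2.71. Only 20.3% of isolated peaks had a mean ratio under 1, against 24.0% of neighboured peaks and 28.1% of all other peaks. A mean at or above the value of the m6A control was found for 275 isolated peaks, 13.9%, against 10.6% of the neighboured peaks. In every one of the 6 libraries, 142 of the 1975 isolated peaks and 450 of the 7977 neighboured peaks reached that value. Over all peaks 761 of 12923 did. A mean of at least 10 was found for 20 isolated peaks, 1.01%, and for 40 neighboured peaks, 0.50%. When only peaks with a mean of at least 1 were kept, the median of isolated peaks was 1.04 times that of the other peaks, against 1.15 over all peaks.

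**Figure D1:**
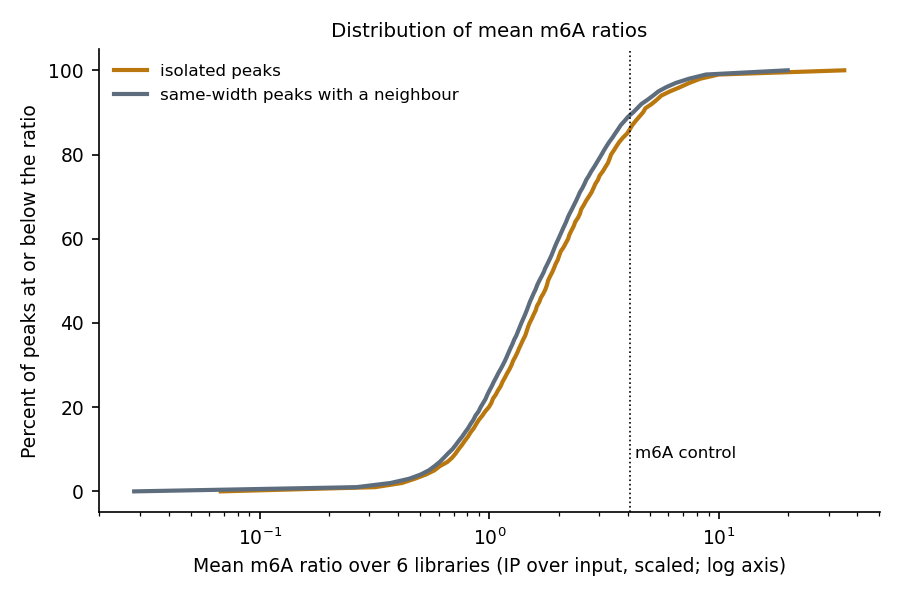
Percent of peaks (vertical axis) at or below a mean m6A ratio over the 6 libraries (horizontal log axis), for isolated peaks and neighboured peaks of the same widths; the dotted line marks the m6A control at 4.10. The curve of isolated peaks lies to the right, with medians of 1.80 and 1.65.

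Among the most strongly methylated peaks, isolated ones were more frequent than in the table at large. They made up 26 of the 100 peaks with the highest mean ratio and 184 of the highest 1000, where they are 15.3% of all peaks. These ranks are over peaks of all widths, and levels differed with width. Of the peaks within the width limits alone, 19.8% were isolated. Of the 100 lowest peaks 1 was isolated, and of the lowest 1000, 92 were. The 3 highest means of the whole table all belonged to isolated peaks.

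The highest peak of the table lay on chromosome 7 (96960990 to 96961961, GRCm39), 972 bases wide and 248736 bases from its nearest neighbour. Its ratio was 34.8 and 30.1 (WT), 41.2 and 37.3 (KO) and 28.4 and 39.0 (del-cIDR). It rested on 124 to 202 input reads in 5 libraries, while the second del-cIDR value reduced to 4 input reads in lowest terms. All 6 values lay above the highest value of any other peak outside the isolated group, 24.1. Both KO values lay above both WT values, and del-cIDR overlapped each of the other genotypes.

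The peaks that followed lay well below it. The peak on chromosome 3 (54806302 to 54806803) stood at 21.4 and 24.8 (WT), 23.9 and 25.2 (KO) and 21.8 and 15.0 (del-cIDR). The peak on chromosome 11 (55064431 to 55064918) had 16.4 and 14.4 (WT), 30.1 and 36.1 (KO) and 12.3 and 22.0 (del-cIDR). Both KO libraries of the chromosome 11 peak lay above its other 4, and at the chromosome 3 peak both KO libraries lay above both del-cIDR libraries while WT overlapped each. Input reads in lowest terms were 1 to 28 at the chromosome 3 peak and 21 to 258 at the chromosome 11 peak.

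The other 3 of the 6 highest isolated peaks had means between 14.0 and 17.6. On chromosome 8 (79916764 to 79917399) the ratio was 14.7 and 18.2 (WT), 20.1 and 23.7 (KO) and 17.6 and 11.3 (del-cIDR). On chromosome 19 (56711566 to 56712450) it was 24.0 and 9.98 (WT), 18.9 and 14.2 (KO) and 8.51 and 8.45 (del-cIDR), with the WT replicates farther apart than any 2 genotypes' means. On chromosome 9 (98296196 to 98296494) it was 11.7 and 10.6 (WT), 15.9 and 25.0 (KO) and 7.40 and 13.3 (del-cIDR). In the chromosome 8 and chromosome 9 peaks both KO libraries stood above the other 4. Input reads in lowest terms were 1 to 38 at the chromosome 8 peak and 53 to 189 at the chromosome 9 peak. At the chromosome 19 peak they were 1 to 31, with 1 in each KO library.

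The weakest isolated peaks that entered the tests, with means between 1.00 and 1.01, lay on chromosomes 5, 17, 10 and 15. The peak on chromosome 10 (12884533 to 12884842) was among the deepest of those named, with 377 to 1634 input reads in lowest terms. Its ratio was 1.02 and 1.02 (WT), 1.04 and 1.06 (KO) and 0.968 and 0.920 (del-cIDR), and both del-cIDR libraries lay below the other 4.

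Levels followed the distance to the nearest peak in steps, also among peaks that were not isolated. Within the same width limits, the median of the mean ratio was 1.61 in the 2599 peaks with a neighbour within 1000 bases, 1.66 in the 2787 at 1000 to 10000 bases and 1.68 in the 2591 at 10000 to 50000 bases. Beyond the rule's distance it was 1.75 in the 846 peaks up to 100000 bases, 1.84 in the 564 up to 200000, 1.88 in the 349 up to 500000 and 2.01 in the 216 farther away. Single libraries did not follow every step. In both KO libraries the group within 1000 bases stood above the group at 1000 to 10000. In 5 of 6 libraries, all but del-cIDR replicate 1, the group up to 200000 stood above the group up to 500000. The group beyond 500000 bases had the highest median in every library, from 1.82 to 2.36, where the closest group had 1.41 to 1.92. Median widths of these groups ran from 458 to 493.5 bases without an order.

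**Figure D2:**
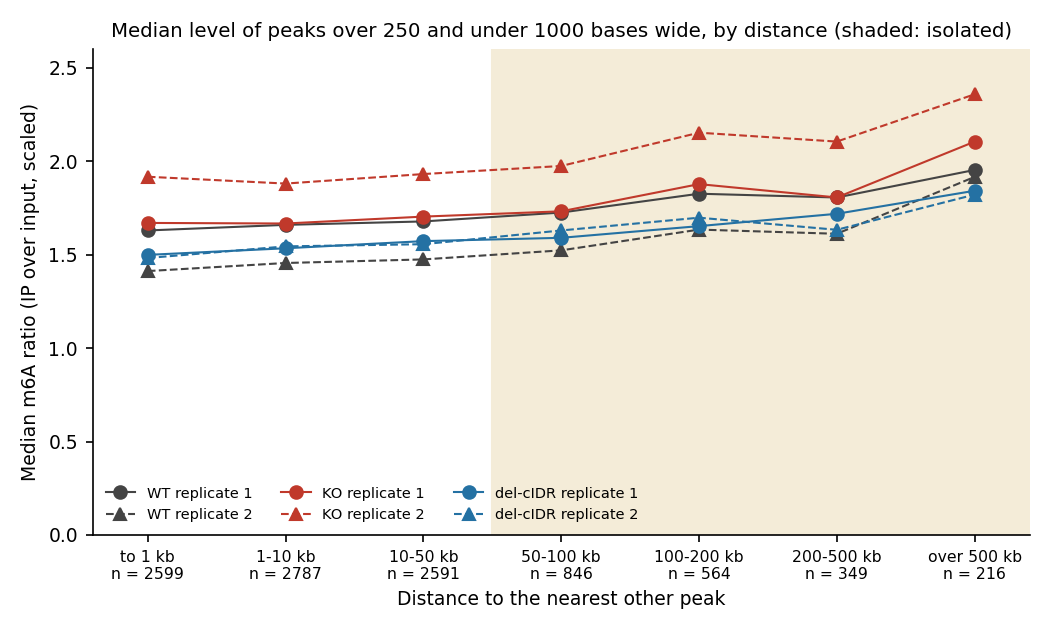
Median m6A ratio (vertical axis) of peaks wider than 250 and narrower than 1000 bases in 7 groups by distance to the nearest other peak (horizontal axis, with the number of peaks), 1 line per library; the shaded groups are isolated. All 6 lines are highest in the group beyond 500000 bases.

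Input depth differed with distance as well, but not in 1 direction. As the median of the libraries' medians, in lowest terms, input reads were 101, 108 and 117 in the 3 groups within 50000 bases. Beyond that distance they were 98 up to 100000 bases, 69.3 up to 200000, 85 up to 500000 and 63.3 farther away. The part of depth in the distance pattern was not tested. Over whole groups the libraries' medians were 49.5 to 95 input reads in isolated and 66 to 126 in neighboured peaks. In bulk samples fewer cells with a transcript and less of that RNA per cell cannot be told apart.

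Ratios were higher where input was lower, in isolated and in neighboured peaks. Input reads are also the divisor of the ratio, so the 2 are not independent and part of this pattern is built in. Among isolated peaks the mean of the library medians was 2.42 in the 268 peaks with up to 20 input reads and 1.24 in the 300 with over 400. For neighboured peaks these values were 2.31 and 1.28. Isolated peaks held 13.6% of their number in the shallowest group, against 8.22% of neighboured peaks.

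Within groups of like depth isolated peaks were higher in all 6 libraries from 20 to 400 input reads and lower in all 6 over 400. Between 20 and 50 input reads the isolated median was 1.05 to 1.12 times the neighboured one, and between 50 and 100 reads 1.08 to 1.13 times. From 100 to 200 reads it was 1.04 to 1.09 times, and from 200 to 400 reads 1.02 to 1.11 times. Over 400 reads it was 0.951 to 0.994 times. Up to 20 reads it ran from 0.928 to 1.11 and was higher in 4 libraries.

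**Figure D3:**
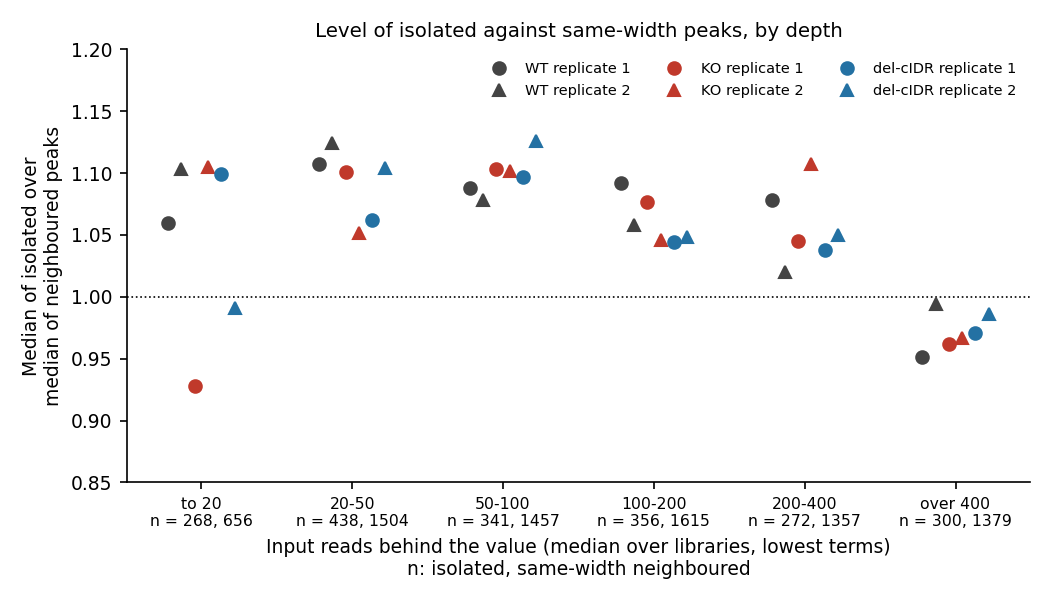
Median ratio of isolated peaks divided by that of neighboured peaks of the same widths (vertical axis, starting at 0.85) in 6 groups by input reads behind the value (horizontal axis, with the numbers of peaks), 1 point per library. Points lie above 1 in all libraries from 20 to 400 reads and below 1 in all libraries over 400 reads.

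Levels rose with width, over a wider range than the margin between isolated and neighboured peaks. Among isolated peaks the median of the mean ratio was 1.28 in the 231 peaks up to 300 bases wide, 1.40 in the 472 up to 400, 1.76 in the 365 up to 500, 1.90 in the 313 up to 600, 2.38 in the 377 up to 800 and 2.68 in the 217 wider ones. Compared with neighboured peaks of the same width class, isolated peaks were higher in all 6 libraries in 5 of 6 classes. In the narrowest class the medians were 1.28 and 1.07, and in the widest 2.68 and 2.36. The exception was the class from 500 to 600 bases, where the medians were 1.90 and 1.94 and isolated peaks were higher in 2 of 6 libraries. The 565 isolated peaks outside the width limits had medians of 1.44 and 1.26 (WT), 1.44 and 1.68 (KO) and 1.28 and 1.37 (del-cIDR), each below that of the isolated peaks within the limits.

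Isolation was unevenly spread over chromosomes, as the rule itself implies where peaks are sparse. The share of a chromosome's peaks that were isolated was lowest on chromosome 17, at 62 of 665 or 9.32%, and highest on chromosome X, at 77 of 327 or 23.5%. On chromosome X the table held 2.00 peaks per megabase between its first and last peak, and on chromosome 11, with 11.7% isolated, 8.74. On 19 of the 20 chromosomes with at least 300 peaks, the median of the mean ratio was higher in isolated than in other peaks. Chromosome 7 was the exception, with 1.57 against 1.62, although it carried the highest peak of all. On chromosome 15 the medians were 2.33 and 1.53.

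The median distance of an isolated peak to its nearest neighbour was 115468 bases, and 80 peaks had none within 1000000 bases. The most distant was on chromosome Y (74585455 to 74585795), 14640915 bases from any other peak. Its ratio was 2.40 and 2.69 (WT), 3.64 and 5.60 (KO) and 1.95 and 2.44 (del-cIDR), on no more than 29 input reads in lowest terms. Both KO libraries lay above the other 4. The next 4, on chromosomes X, 13, 6 and 2, had means of 1.22 to 1.81, near or below the median isolated peak.

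Near the limits of the rule the values were mixed. The isolated peaks with the smallest distances were a pair on chromosome 4 that lay 50008 bases from each other, with means of 2.43 and 4.67, and a peak on chromosome 5 at 50112 bases with 0.644. The 3 neighboured peaks just short of the limit, at 49783 to 49833 bases, had means of 0.540, 0.939 and 4.40. The 3 narrowest isolated peaks within the limits had means of 2.74, 2.91 and 1.17 and the 3 widest 2.50, 1.93 and 3.28. Isolated peaks just outside had 1.74, 0.705 and 0.833 at 250 bases, and 3.10, 2.92 and 3.06 at 1000 and 1001 bases.

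Loss of Alkbh5 was compared with WT to ask whether isolated sites gain m6A when the demethylase is missing. Most isolated peaks had higher control-scaled ratios in KO, in a share near that of the other peaks, and no single isolated peak passed the test. Of the 1975 isolated peaks 1575 had a mean ratio of at least 1 and were tested. In 78.5% of these the KO mean was the higher, and the change had a median of 0.13 in log2(ratio + 1). In the 7876 other tested peaks the share was 78.7% and the median 0.14. Without any filter the medians over all 1975 isolated and all other peaks were 0.13 and 0.12. The direction depended on the scaling. Without the control's constant 5.59% of tested isolated peaks were higher in KO and the median difference was -0.36. Those values are plain read ratios, with no scaling for the depth of the IP and input libraries. After centring each library on its median 49.0% were higher.

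The shift of isolated peaks in KO did not separate the 2 KO libraries from the 2 WT libraries. The median over tested isolated peaks was 1.68 and 1.57 in WT and 1.67 and 1.82 in KO on the log2(ratio + 1) scale. KO replicate 1 lay just below WT replicate 1, so the groups overlapped. Leaving out KO replicate 2 gave a median change of 0.07 and leaving out WT replicate 2 gave 0.08, while leaving out replicate 1 of KO or of WT gave 0.20 and 0.19. With 2 libraries a group, an exact two-sided permutation test cannot go below p = 0.333.

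By single peaks, 0 isolated peaks passed in KO against WT, as did 0.0% of all tested peaks (limma, smallest adjusted p = 0.330). An unadjusted p under 0.05 was found for 156 higher and 18 lower isolated peaks. That is 9.90% and 1.14% of those tested, where 10.1% and 1.06% of all tested peaks were called in the same way, and 11.1% in either direction. Without KO replicate 2 fewer isolated peaks had such a p, and the matching share over all tested peaks is not given here. Ratios of both KO libraries lay above both WT libraries at 626 isolated peaks, 39.7%, against 40.8% of all tested peaks, and below at 78, 4.95%, against 4.88%. These shares were near the background in both directions.

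The smallest p among isolated peaks with higher values in KO belonged to a peak on chromosome 3 (122522602 to 122523013). Its ratio was 0.658 and 0.577 (WT), 1.65 and 2.29 (KO) and 1.21 and 1.11 (del-cIDR), so the 3 genotypes did not overlap. The log2 difference between KO and WT was 0.87 (SE 0.13, limma adjusted p = 0.330). In lowest terms the WT values rested on 4 and 1 input reads and the KO values on 1 and 7, which are lower bounds. Its mean of 1.25 reached the filter of at least 1 through its KO values. The genotype means were 0.617 (WT), 1.97 (KO) and 1.16 (del-cIDR). This peak was the only isolated one to pass when KO and WT alone were fitted (limma adjusted p = 0.0415), where 9 of all tested peaks did.

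The 4 further peaks named for higher values in KO, all on the control-scaled ratio, differed in where del-cIDR stood. On chromosome 15 (27902686 to 27903043) the ratio was 1.85 and 2.17 (WT), 3.98 and 6.03 (KO) and 3.37 and 2.44 (del-cIDR), a log2 difference of 0.98 (SE 0.20). On chromosome 13 (66056247 to 66056847) it was 1.43 and 1.16 (WT), 3.67 and 2.74 (KO) and 1.35 and 1.98 (del-cIDR). On chromosome 1 (86524826 to 86525097) it was 2.08 and 2.17 (WT), 3.84 and 4.80 (KO) and 2.75 and 3.44 (del-cIDR). In these 3 peaks both KO libraries lay above all 4 others. On chromosome 15 (36099760 to 36100071) the ratio was 1.51 and 1.97 (WT), 3.35 and 4.32 (KO) and 3.25 and 4.47 (del-cIDR), so that both altered genotypes stood above WT and overlapped each other.

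On the lower side in KO, chromosome 3 held the peak with the smallest p (133015558 to 133015881). Its ratio was 2.99 and 3.99 (WT), 1.20 and 1.60 (KO) and 1.54 and 1.97 (del-cIDR), a log2 difference of -0.90 between KO and WT (SE 0.17, limma adjusted p = 0.330). On chromosome 13 (62009420 to 62009712) it was 5.14 and 5.18 (WT), 2.66 and 2.31 (KO) and 1.64 and 2.83 (del-cIDR). In both peaks the altered genotypes overlapped each other and lay below WT. The other 3, on chromosomes 11, 2 and 19, had log2 differences of -0.67, -0.75 and -0.53. Without the control's constant all 5 passed (limma adjusted p = 0.0191 to 0.0357), among 11 isolated peaks, 0.698%, and 0.466% of all tested peaks. At the chromosome 11 peak both del-cIDR libraries lay above both KO libraries.

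On the log2(ratio + 1) scale the differences in KO did not follow the level of the peak. Over 5 equal groups of all tested peaks by mean ratio, the median difference of isolated peaks ran from 0.13 to 0.14, and that of the other peaks from 0.12 to 0.14. Because 1 is added to each ratio, a given value on this scale stands for a larger relative change at a low peak. By distance, the isolated groups had medians of 0.12 to 0.16 and the neighboured groups 0.13 to 0.15.

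**Figure D4:**
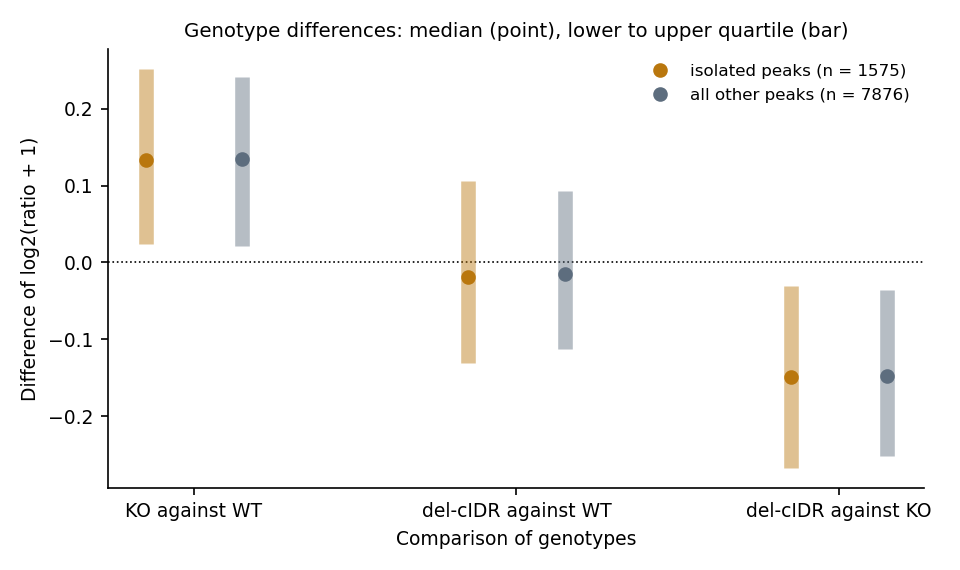
Difference of log2(ratio + 1) between genotype means (vertical axis) for the 3 comparisons (horizontal axis), for the 1575 isolated and 7876 other tested peaks; points are medians over peaks and bars run from the lower to the upper quartile. Isolated and other peaks have near-equal medians in each comparison, at 0.13 and 0.14, -0.02 and -0.01, and -0.15 and -0.15 on the control-scaled values; without the control's constant the isolated medians are -0.36, 0.01 and 0.38.

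Removal of the disordered region was compared with WT to ask whether Alkbh5 without it acts differently on isolated sites. The change in log2(ratio + 1) had a median of -0.02 over tested isolated peaks, and 45.0% had a higher mean in del-cIDR, against -0.01 and 46.1% in the other peaks. Without the control's constant the median was 0.01 and 51.4% of isolated peaks were higher. Both del-cIDR medians, 1.61 and 1.61, lay between the WT medians of 1.68 and 1.57. Leaving out WT replicate 1 gave a median of 0.04, and leaving out WT replicate 2 gave -0.07.

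No isolated peak passed in del-cIDR against WT, nor did any of all tested peaks (0.0%; limma, smallest adjusted p = 0.579). An unadjusted p under 0.05 was found for 51 higher and 62 lower isolated peaks, 3.24% and 3.94%, where 2.72% and 3.03% of all tested peaks had one. In either direction these were 7.17% of the isolated, 5.46% of the other and 5.75% of all tested peaks. In the same table isolated peaks had fewer reads and a wider replicate spread than the other peaks. The median absolute difference between replicates, after removing the library shift, was 0.14, 0.13 and 0.16 in WT, KO and del-cIDR for isolated peaks, and 0.12, 0.11 and 0.14 for the other peaks. Its part in these shares was not tested. The libraries did not overlap at 235 higher and 296 lower isolated peaks, 14.9% and 18.8%, against 15.1% and 17.3% of all tested peaks.

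The peak with the smallest p and a higher value in del-cIDR was a strongly methylated one on chromosome 5 (127436856 to 127437441). Its ratio was 6.00 and 4.88 (WT), 8.69 and 11.5 (KO) and 19.8 and 13.8 (del-cIDR), with no overlap between the 3 genotypes. The log2 difference from WT was 1.45 (SE 0.26, limma adjusted p = 0.579). Its values rested on 4 to 37 input reads in lowest terms. It was the only tested isolated peak with a difference above 1 on this scale, and none was below -1.

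Others with higher values in del-cIDR differed in where KO stood. On chromosome 4 (83599315 to 83599709) the ratio was 0.572 and 1.01 (WT), 2.49 and 1.46 (KO) and 3.16 and 2.04 (del-cIDR). On chromosome 6 (40383546 to 40384009) it was 2.02 and 3.05 (WT), 2.60 and 2.87 (KO) and 4.85 and 5.04 (del-cIDR). On the former KO overlapped del-cIDR, and on the latter it overlapped WT. The chromosome 10 peak (53950523 to 53950945) and the chromosome 15 peak at 36099760 had both altered genotypes above WT.

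Among those with lower values in del-cIDR, the chromosome 13 peak at 62009420 had the smallest p, with a log2 difference of -0.95 (SE 0.19, limma adjusted p = 0.579). On chromosome X (74454348 to 74454749) the ratio was 1.33 and 1.46 (WT), 1.42 and 1.43 (KO) and 0.741 and 0.630 (del-cIDR). On chromosome 13 (48819210 to 48819796) it was 3.46 and 3.54 (WT), 3.42 and 3.00 (KO) and 1.95 and 1.74 (del-cIDR). A second peak on chromosome X (168772000 to 168772362) had 5.42 and 4.59 (WT), 5.56 and 6.37 (KO) and 2.96 and 2.07 (del-cIDR), on 47 to 199 input reads in lowest terms. At these 3 peaks both del-cIDR libraries stood below the other 4. The chromosome 8 peak (69587787 to 69588782) had 3.84 and 6.35 (WT), 2.44 and 3.05 (KO) and 1.88 and 2.13 (del-cIDR), with no overlap between genotypes.

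At most isolated peaks the control-scaled ratio of del-cIDR stood below that of KO, by a median near that of the other peaks. Of the tested isolated peaks 20.6% were higher in del-cIDR, with a median difference of -0.15, against 19.5% and -0.15 in the other peaks. Without the control's constant 94.2% of isolated peaks were higher in del-cIDR and the median was 0.38, and after centring 50% were higher. Both del-cIDR medians lay below both KO medians, and without KO replicate 2 the difference was -0.08. This comparison shares its KO libraries with KO against WT and its del-cIDR libraries with the comparison of del-cIDR and WT.

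Of the isolated peaks 0 passed in del-cIDR against KO, as did 0.0% of all tested peaks (limma, smallest adjusted p = 0.160). An unadjusted p under 0.05 was found for 186 lower and 19 higher isolated peaks, 11.8% and 1.21%, where 10.4% and 1.33% of all tested peaks had one, and 11.8% in either direction. Without KO replicate 2 fewer isolated peaks had an unadjusted p under 0.05, and the matching share over all tested peaks is not given here. Both del-cIDR libraries lay below both KO libraries at 668 isolated peaks, 42.4%, against 44.3% of all tested peaks, and above at 86, 5.46%, against 5.18%.

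The largest fall from KO among the isolated peaks was on chromosome 6 (99603684 to 99603944). Its ratio was 1.87 and 2.98 (WT), 4.85 and 5.78 (KO) and 1.08 and 1.97 (del-cIDR), a log2 difference of -1.34 (SE 0.22, limma adjusted p = 0.160). Without del-cIDR replicate 2, which reduced to 1 input read in lowest terms, it passed (limma adjusted p = 0.0235), as the only isolated peak among 4 of all tested peaks. On chromosome 10 (70760791 to 70761131) the ratio was 3.81 and 3.14 (WT), 5.67 and 4.80 (KO) and 1.70 and 2.27 (del-cIDR), a log2 difference of -1.07 (SE 0.17, limma adjusted p = 0.160). WT lay between KO and del-cIDR at the chromosome 10 peak with no overlap, and overlapped del-cIDR at the chromosome 6 peak.

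Further differences of this kind were smaller. On chromosome 6 (134586926 to 134587603) the ratio was 1.50 and 1.96 (WT), 2.96 and 2.62 (KO) and 1.33 and 1.20 (del-cIDR). On chromosome 10 (11332924 to 11333242) it was 0.868 and 1.15 (WT), 2.47 and 1.53 (KO) and 0.820 and 0.567 (del-cIDR). At both peaks the KO values were the highest and the del-cIDR values the lowest. Input reads in lowest terms were 11 to 57 at this chromosome 6 peak and 1 to 20 at this chromosome 10 peak. The latter's mean of 1.24 reached the filter of at least 1 through KO. Its genotype means were 1.01 (WT), 2.00 (KO) and 0.694 (del-cIDR). The chromosome X peak at 168772000 differed by -1.0 (SE 0.19, limma adjusted p = 0.223), with both KO libraries above both WT libraries.

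Values above KO were rarer in del-cIDR. The chromosome 6 peak at 40383546 had the smallest p among them, with a log2 difference of 0.67 (SE 0.18, limma adjusted p = 0.298). On chromosome X (59449324 to 59449946) the ratio was 2.97 and 1.69 (WT), 1.67 and 1.80 (KO) and 3.36 and 3.55 (del-cIDR). On chromosome 1 (78760820 to 78761285) it was 3.34 and 3.94 (WT), 3.52 and 3.14 (KO) and 6.17 and 5.00 (del-cIDR). On chromosome 2 (132659749 to 132660206) it was 5.06 and 4.06 (WT), 4.95 and 4.12 (KO) and 6.60 and 7.60 (del-cIDR). In these 3 peaks WT overlapped KO and del-cIDR stood above both. At the last of the 5, on chromosome 2 (28845338 to 28845701), del-cIDR also stood above both, and both WT libraries lay above both KO libraries. Without the control's constant all 5 passed (limma adjusted p = 0.0311 to 0.0417), among 23 isolated peaks, 1.46%, and 1.54% of all tested peaks.

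**Figure D5:**
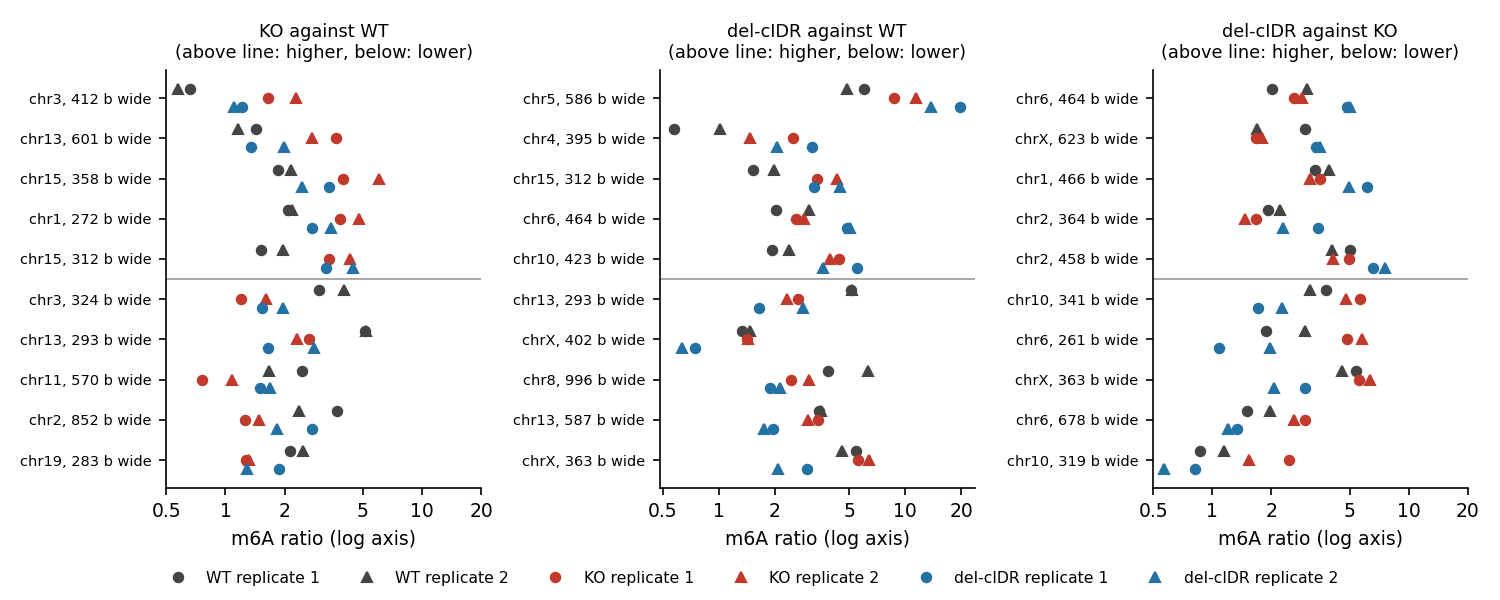
m6A ratio per library (horizontal log axis) at the isolated peaks with the smallest p in each direction, named by chromosome and width (vertical axis), in 3 panels for the 3 comparisons; peaks above the grey line are higher in the first genotype and those below it are lower. The libraries of the 2 genotypes compared do not overlap at any of them, which is how they were chosen, and none passed the test after adjustment.

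Across the 3 genotypes, KO had the highest mean at 67.8% of tested isolated peaks and del-cIDR the lowest at 48.9%, on the control-scaled values. For the other peaks these shares were 68.8% and 48.9%. Both KO libraries exceeded all 4 others at 378 isolated peaks, 24.0%, against 27.2% of the other peaks. Both del-cIDR libraries lay below all 4 others at 209, 13.3%, against 12.9%. The differences between isolated and other peaks in these shares were not tested.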

How the data were processed

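Per the submitters' processing notes, GRCm39 was the build, and MACS2, featureCounts, bedtools, Picard, SAMtools, HISAT2 and fastp were used, with no role or version named. Whether peaks were called per sample or on pooled samples is not stated there. The deposited m6A table holds a ratio, IP over input, per peak and library. Per library, 98.6% to 99.6% of values were 1 constant times a fraction of integers within 1e-10, with denominators of at most 3000, against 0.22% to 0.29% by chance. These fractions give the reads in lowest terms. The mRNA table was not used.

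Distances run between peak edges, over all named peaks. limma 3.58.1 (R 4.3.3) took log2(ratio + 1) of all 9451 peaks with a mean of at least 1, all genotypes in 1 fit without a block, with a variance trend and Benjamini-Hochberg adjustment over all of them, threshold 0.05. The fit was tested on simulated data. Summaries used Python 3.11.15. Named peaks were chosen by rule: the 6 highest, 4 lowest tested and 5 most distant isolated peaks, those next to the limits, and per comparison the 5 smallest p in each direction without overlap. The members, lists and rules were chosen with earlier results of these data known. Alternatives covered pseudocounts, filters, scalings, no variance trend, fits of only 2 genotypes, a replicate block, each library left out and other limits of the rule.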

Additional observations from a re-analysis of the deposited data

How the results depend on the processing

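The level of isolated over other peaks, 1.15 times as the mean over libraries, was 1.15 to 1.16 when any 1 library was left out. This ratio of medians is taken within each library, so scaling by 1 factor per library cancels and could not move it. The ratio moved little with quantile normalization. It was 1.14 at an isolation distance of 20000 bases, 1.18 at 100000, 1.11 without width limits, 1.04 among peaks with a mean of at least 1 and 1.09 against neighboured peaks of the same widths. Within depth groups, a comparison chosen after seeing the data, it was 1.05, 1.09, 1.10, 1.06, 1.06 and, over 400 input reads, 0.972. Counts of isolated peaks past the threshold, 0 in each comparison, were 1 in KO against WT with only those genotypes in the fit, and without the control's constant 11 (all lower) in KO against WT and 23 (all higher) in del-cIDR against KO, 0.698% and 1.46% of the isolated and 0.466% and 1.54% of all tested peaks. Leaving out 1 library gave 0 to 1, 0 to 0 and 0 to 1 in KO against WT, del-cIDR against WT and del-cIDR against KO. The median change was -0.36 in KO against WT and 0.38 in del-cIDR against KO without the constant, -0.0056 and -0.00016 after centring, and 0.00015 and -0.0073 after quantile normalization; without 1 library it ran from 0.07 to 0.20, from -0.07 to 0.04 and from -0.21 to -0.08. The difference between the medians of isolated and other peaks stayed between -0.0072 and 0.0041, -0.017 and 0.0037, and -0.0089 and 0.0046 with 1 library left out, and was -0.018 in del-cIDR against KO at an isolation distance of 100000. With a replicate block 11 isolated peaks passed in KO against WT (10 higher), 4 in del-cIDR against WT (2 higher) and 13 in del-cIDR against KO (all lower); these are 0.698%, 0.254% and 0.825% of the isolated and 0.624%, 0.138% and 1.15% of all tested peaks. The labels do not say that the numbers pair samples, and replicate differences correlated at -0.02, 0.02 and 0.02 between genotypes over 9451 peaks. Values without the constant also lack any scaling for the depth of the IP and input libraries. The cause of these moves was not tested. Fewer input reads limit isolated peaks more: 15.2% to 27.3% of them had under 20 per library in lowest terms.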
